A study of Mus musculus with 12 samples.

Results

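A set of 9 genes of the cell division cycle and of its main brake, the p53 pathway, was chosen by symbol for their role. Earlier results of these data were known at that time. Of these 9 genes, 6 had a row among the 750 endogenous genes measured (Myc, Ccnd3, Cdk1, Birc5, Trp53 and Cdkn1a), all 6 passed the filter on low values and were among the 646 genes tested, and Cep55, Pbk and Ttk, which act in cytokinesis and at the mitotic spindle, were not analysed here. The measurements came from whole tumors of CT26, a mouse colon carcinoma cell line, grown in the flank of BALB/c mice. Tumors were resected 4 days after dosing from 4 groups of 3 mice, 1 tumor a mouse. Vehicle mice received no active agent, a second group received DSP-0509, an agonist of Toll-like receptor 7, at 5 mg/kg into a vein, another received the anti-PD-1 antibody RMP1-14 at 200 µg/mouse into the abdomen, and the combination group received both. All groups shared the host strain, the cell line and the day of resection, and the tumor holds host immune, stromal and endothelial cells beside the CT26 cells. The nCounter system counted RNA molecules with 1 barcoded probe for each gene and no amplification, and the values are counts multiplied by a factor for each tumor, called normalized counts below.

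A cell enters the division cycle when growth signals raise Myc and the D-type cyclins, which activate the G1 kinases. Cdk1 then drives mitosis, and Birc5 belongs to the complex that attaches chromosomes to the spindle. The p53 protein, encoded by Trp53, is controlled mostly through its stability and switches on Cdkn1a, whose product p21 blocks the cyclin-dependent kinases. In CT26 tumors these transcripts can come from the carcinoma cells and from dividing lymphocytes alike, and in whole tumors fewer cells of a type and less RNA per cell cannot be told apart.

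Total counts per tumor ran from 750416 to 1155698, with DSP-0509 tumor 3 at the lowest. The median difference of all 646 genes from vehicle on the log2(value + 1) scale was 0.34 with the combination, 0.20 with DSP-0509 and 0.18 with anti-PD-1 antibody, so the differences below stand against a panel that was higher on the whole. The 20 housekeeping genes had a median difference of -0.12 between combination and vehicle. Among markers of other cells in combination against vehicle, 5 of 6 T cell markers, 1 of 4 pan-leukocyte markers, 2 of 5 macrophage markers and 3 of 4 fibroblast markers rose, and none of 3 epithelial and 5 endothelial markers passed the test. In the same comparison 139 of all 646 genes rose. Only 1 of 4 B cell markers passed the filter. Of the epithelial markers, Epcam lay between 17.9 and 134, Cdh1 between 29.1 and 114 and Muc1 between 61.9 and 94.1 normalized counts over the 12 tumors.

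None of the 6 genes passed the test in any comparison. The test was limma with Benjamini-Hochberg adjustment over all 646 genes at an adjusted p under 0.05. For the combination against vehicle 22% of all genes passed and 0.464% of all genes passed as lower, and for the F test among the 4 groups 5.42% passed. The share of the panel was 0.774% for DSP-0509 against vehicle and 0% for anti-PD-1 antibody against vehicle, the combination against DSP-0509, the combination against anti-PD-1 antibody, DSP-0509 against anti-PD-1 antibody and the interaction of both treatments. At an unadjusted p under 0.05, 1 of the 6 genes (Myc, in combination against vehicle) was counted, by limma and by the methods' t-test alike, and 244 of the 646 genes were counted by limma in that comparison.

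Myc, the transcription factor that drives growth and division genes, showed the lowest differences from vehicle of the 6 genes. Its normalized counts were 3269, 2939 and 3162 in the vehicle tumors, 2954, 2806 and 2554 with DSP-0509, 2999, 2178 and 2222 with anti-PD-1 antibody, and 2715, 2436 and 2024 with the combination. Each combination tumor lay below each vehicle tumor, a pattern that 6.35% of all tested genes showed in the same direction. Each monotherapy group had 1 tumor above the lowest vehicle tumor. The mean was 3124 ± 168 (SD, n = 3) in vehicle tumors, 2392 ± 348 (SD, n = 3) in combination tumors, 2466 ± 462 (SD, n = 3) in anti-PD-1 antibody tumors and 2772 ± 202 (SD, n = 3) in DSP-0509 tumors.

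The log2 difference of Myc between combination and vehicle was -0.39 (SE 0.16, 95% interval -0.75 to -0.03), which is 0.761-fold, and did not pass after adjustment (limma adjusted p = 0.107). Only 3.10% of the tested genes had a lower difference. With anti-PD-1 antibody alone it was -0.36 (SE 0.16, limma adjusted p = 0.372), and with DSP-0509 alone -0.17 (SE 0.16, limma adjusted p = 0.563). The combination differed from anti-PD-1 antibody by -0.04 (95% interval -0.40 to 0.32) and from DSP-0509 by -0.22 (95% interval -0.58 to 0.14). The interaction of the treatments was 0.13 (95% interval -0.37 to 0.64), so the data neither show nor bound closely a departure from additive log2 effects. Without combination tumor 3 the difference of Myc from vehicle was -0.28, and without combination tumor 1 it was -0.49. In the same tumors the summed normalized counts of the 6 T cell markers were 326 to 569 with vehicle and 1017 to 2128 with the combination, and none of these markers was at 0. The part of such cell numbers in the Myc values was not tested.

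**Figure D1:**
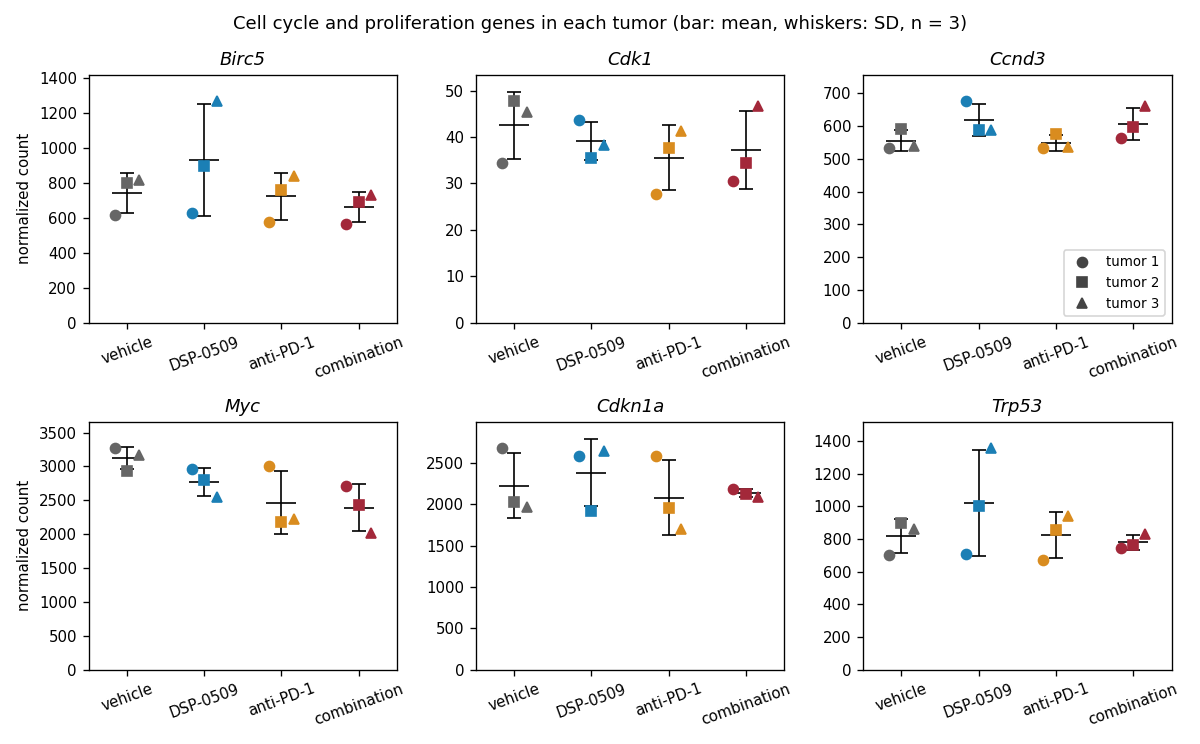
Normalized count (vertical axes, each from 0) of the 6 genes in the 4 groups, with a point for each tumor shaped by its number, a bar for the group mean and whiskers for 1 SD (n = 3). Only in the Myc panel do all 3 combination tumors (2024 to 2715) lie below all 3 vehicle tumors (2939 to 3269), and tumors numbered 1 are the lowest for Birc5 and Trp53 in each group.

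Ccnd3, cyclin D3, the D-type cyclin best known for the division of developing lymphocytes, was the steadiest of the 6 across tumors, with the highest value 1.27 times the lowest. Its normalized counts were 533, 592 and 540 in vehicle tumors, 675, 589 and 589 with DSP-0509, 533, 577 and 537 with anti-PD-1 antibody, and 563, 596 and 659.7 with the combination. Each treated group overlapped vehicle. The 3 DSP-0509 tumors all lay above the 3 anti-PD-1 antibody tumors, as for 1.55% of the tested genes. That difference was 0.17 (SE 0.12, limma adjusted p = 0.999) and did not pass. Against vehicle the differences of Ccnd3 were 0.15 (95% interval -0.11 to 0.42) with DSP-0509, -0.02 (95% interval -0.28 to 0.25) with anti-PD-1 antibody and 0.13 (95% interval -0.14 to 0.39) with the combination. Ccnd3 was the only one of the 6 with a positive difference for the combination, and that value too lay below the panel median.

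Cdk1, the mitotic kinase, had few counts. Its normalized counts were 34.3, 47.7 and 45.5 in vehicle tumors, 43.6, 35.4 and 38.4 with DSP-0509, 27.8, 37.65 and 41.3 with anti-PD-1 antibody, and 30.6, 34.5 and 46.65 with the combination. All treated groups overlapped vehicle. Before the factor these were 26 to 51 counts, where counting error alone gives 95% Poisson intervals of 16.98 to 38.1 for the lowest and 38.0 to 67.1 for the highest, and the negative control probes averaged 6.25 to 12.5 counts a tumor. Differences from vehicle were -0.11 (95% interval -0.57 to 0.35) with DSP-0509, -0.25 (95% interval -0.72 to 0.21) with anti-PD-1 antibody and -0.19 (95% interval -0.65 to 0.27) with the combination. A fall to 0.635-fold and a rise to 1.21-fold both lay within the interval of the combination. The values hung on single tumors. With anti-PD-1 antibody the difference was -0.091 without anti-PD-1 antibody tumor 1, -0.17 without vehicle tumor 2, -0.40 without vehicle tumor 1 and -0.51 with background subtracted. With the combination it was -0.066 without combination tumor 1, -0.10 without vehicle tumor 2, -0.34 without vehicle tumor 1 and -0.36 without combination tumor 3. None of these passed the test.

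Birc5, which encodes survivin, a member of the chromosomal passenger complex and of the inhibitor of apoptosis family, varied most among tumors, 2.25-fold from lowest to highest. Its normalized counts were 613, 799 and 818 in vehicle tumors, 629, 894 and 1265 with DSP-0509, 576, 758 and 839 with anti-PD-1 antibody, and 563, 690 and 729.7 with the combination. Each treated group overlapped vehicle, and the range within the DSP-0509 group exceeded every difference between group means. Its mean was 743 ± 113 (SD, n = 3) in vehicle tumors, 661 ± 87.2 (SD, n = 3) in combination tumors, 724 ± 135 (SD, n = 3) in anti-PD-1 antibody tumors and 929.7 ± 319.5 (SD, n = 3) in DSP-0509 tumors. The log2 difference between combination and vehicle was -0.17 (95% interval -0.73 to 0.40, limma adjusted p = 0.695). The value for DSP-0509 against vehicle, 0.28 (95% interval -0.29 to 0.84), ran from 0.025 without DSP-0509 tumor 3 to 0.53 without DSP-0509 tumor 1, and was 0.14 without vehicle tumor 1, all of them short of the threshold.

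Trp53, which encodes p53, ran beside Birc5. Its normalized counts were 699.6, 899 and 859 in vehicle tumors, 709, 1003 and 1356 with DSP-0509, 669, 856 and 943 with anti-PD-1 antibody, and 745, 761 and 829.5 with the combination. The groups overlapped, and DSP-0509 tumor 3 was again the highest of the 12 tumors. Differences from vehicle were 0.28 (95% interval -0.23 to 0.78) with DSP-0509, 0.00 (95% interval -0.51 to 0.50) with anti-PD-1 antibody and -0.07 (95% interval -0.57 to 0.44) with the combination. The value for DSP-0509 was 0.050 without DSP-0509 tumor 3, 0.52 without DSP-0509 tumor 1 and 0.17 without vehicle tumor 1, none of them past the threshold. DSP-0509 tumor 3 carried the largest factor of the 12, 1.24.

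Cdkn1a, the p21 inhibitor of cyclin-dependent kinases and a classical target of p53, passed no test between groups. Its normalized counts were 2678, 2028 and 1968 in vehicle tumors, 2587, 1915 and 2639 with DSP-0509, 2586, 1954 and 1702 with anti-PD-1 antibody, and 2183, 2128 and 2089 with the combination. The combination tumors lay within the range of the vehicle tumors. Differences from vehicle were 0.10 (95% interval -0.34 to 0.53) with DSP-0509, -0.10 (95% interval -0.54 to 0.33) with anti-PD-1 antibody and -0.05 (95% interval -0.48 to 0.39) with the combination. Over all tumors the log2 values of Cdkn1a had r = 0.74 with the log2 factor of the tumor. For the other members r ran from -0.32 (Cdk1) to 0.20 (Trp53). The part of the factor in the Cdkn1a values was not tested.

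**Figure D2:**
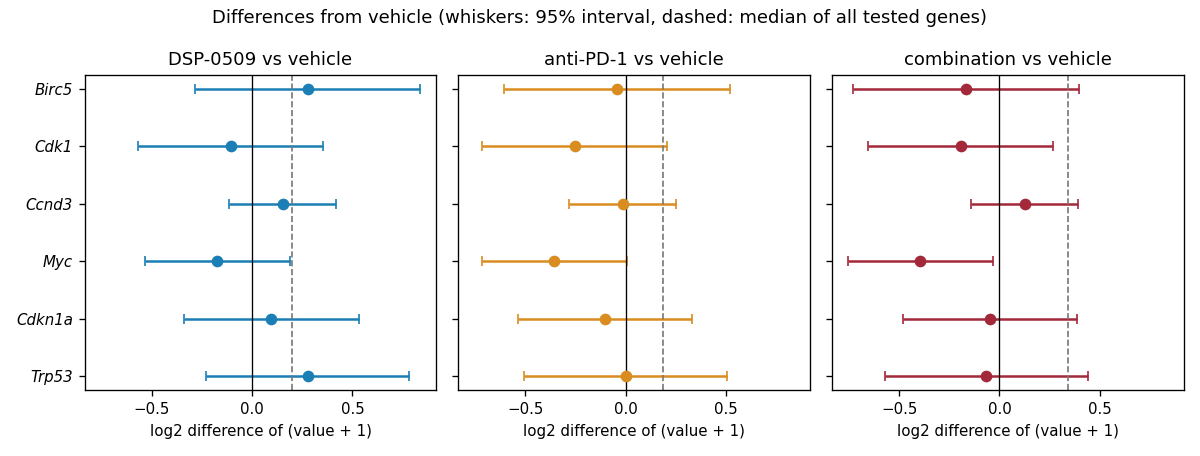
Log2 difference of (value + 1) from vehicle (horizontal axes) for the 6 genes in each treated group, with points for the limma estimate, whiskers for the 95% interval and a dashed line for the median of the 646 tested genes. For the combination all 6 points lie left of the dashed line at 0.34, and only the interval of Myc (-0.75 to -0.03) leaves out 0.

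Birc5 and Trp53 moved together from tumor to tumor. Over the 12 tumors Pearson's r of their log2 values was 0.97 and Spearman's rho was 0.95 (permutation p = 1e-05, the smallest that 100000 permutations can give, and 4e-05; adjusted over the 15 pairs of the 6 genes, 0.00015 and 0.0006). The permutations exchanged all 12 tumors without regard to group or tumor number, so their p does not allow for either. Deviations from the group means gave 0.97, and r was 0.99 without the 2 tumors farthest from the median of Birc5 (DSP-0509 tumor 3 and combination tumor 1). The normalized count of Birc5 divided by that of Trp53 ran from 0.755 in combination tumor 1 to 0.951 in vehicle tumor 3, with a median of 0.888, and for DSP-0509 tumor 3 it was 0.933. The ratio does not depend on the factor of a tumor. With values rescaled to the housekeeping genes, quantile normalized or centred on the median gene, r was 0.96, 0.96 and 0.98.

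Trp53 was the nearest of 645 genes to Birc5 and Birc5 the nearest to Trp53, and both were followed by Cd99, a cell surface glycoprotein (r = 0.95 and 0.97), and Anp32b, a histone chaperone (r = 0.93 and 0.91). High correlations were not confined to this pair, since 7 genes reached an r of at least 0.9 with Birc5 and 5 with Trp53. The number in a tumor's name went with these values. Tumors numbered 1 had the lowest Birc5 and the lowest Trp53 in all 4 groups, as for 24.5% of the tested genes, and the highest Myc in all 4, as for 8.20%. No source says what the number marks. Without the 4 tumors numbered 1 the r of Birc5 and Trp53 was 0.99 over 8 tumors, and deviations from the means of both group and number gave 0.94.

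**Figure D3:**
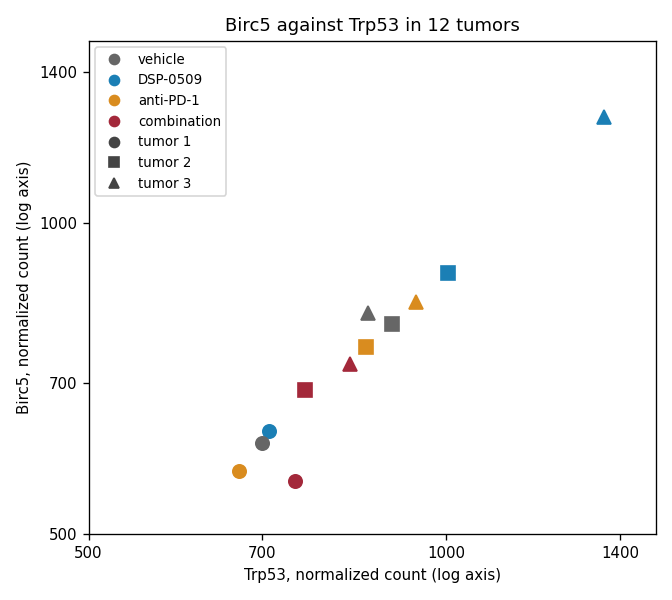
Normalized count of Birc5 (vertical, log axis) against that of Trp53 (horizontal, log axis) in the 12 tumors, coloured by group and shaped by tumor number. The points follow a line (r = 0.97), from the tumors numbered 1 at the lower left to DSP-0509 tumor 3 at the upper right, and combination tumor 1 lies farthest below it.

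The other 14 pairs had r between -0.36 and 0.48 and adjusted permutation p from 0.601 to 0.864 (rho from -0.55 to 0.55, adjusted permutation p from 0.271 to 0.905). Their deviations from the group means gave r from -0.79 (Cdk1 with Myc) to 0.73 (Cdk1 with Ccnd3), with -0.73 for Birc5 with Myc. No p was computed for these deviations. Birc5 and Cdk1, which share their peak in late cycle, had r = 0.41 (rho 0.52), at the few counts of Cdk1. For Trp53 and its target Cdkn1a r was -0.23 (rho -0.55), and it was -0.89 without the 2 tumors farthest from the median of Cdkn1a, vehicle tumor 1 and DSP-0509 tumor 3. Birc5, whose values moved with those of Trp53, showed the same and is not a separate case. Birc5 with Cdkn1a had r = -0.21 (rho -0.51), and -0.92 without the 2 tumors farthest from the median of Birc5. Both removals took out DSP-0509 tumor 3. The r of these pairs turned with the scaling, since the 14 pairs ran from 0.43 to 0.88 after centring on the median gene and Trp53 with Cdkn1a was then 0.47. The genes nearest to the other members were, as a description over the 12 tumors, Tnfrsf12a (0.86), Msln (0.85) and Plaur (0.79) for Myc, Il13ra1 (0.75), C1ra (0.72) and Ifit3 (0.71) for Ccnd3, Tnfsf12 (0.82), Hmgb1 (0.74) and Ythdf2 (0.67) for Cdk1, and Gpr44, Lgals3 and Il1rl1 (0.86, 0.86 and 0.85) for Cdkn1a.

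The promoter windows of the pair that moved together, of Cdk1 and of Cdkn1a are shown to compare their motifs. Sequences are from RefSeq (GRCm38.p6), each 250 bases before to 50 after a transcript start, read 5′ to 3′ on the strand of the gene. Of the 9 genes, 7 had an entry, and Myc and Pbk are named only. Capitals mark the GC box GGGCGG in Birc5 (chr11:117848987-117849286, plus strand), the E-box CACGTG in Trp53 (chr11:69580109-69580408, plus strand), CCAAT and the cell cycle homology region TTTGAA or TTCGAA in Cdk1 (chr10:69352863-69353162, minus strand), and the p53 decamer, the unit that is repeated in a p53 response element, in Cdkn1a (the upstream of its 2 starts, chr17:29090729-29091028, plus strand), on either strand.
Birc5: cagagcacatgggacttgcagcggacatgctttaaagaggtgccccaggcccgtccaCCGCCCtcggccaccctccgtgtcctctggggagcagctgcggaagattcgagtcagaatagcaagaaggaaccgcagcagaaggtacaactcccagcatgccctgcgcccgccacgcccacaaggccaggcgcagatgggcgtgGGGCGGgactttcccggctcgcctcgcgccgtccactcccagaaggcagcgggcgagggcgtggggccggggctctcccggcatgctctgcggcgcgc
Trp53: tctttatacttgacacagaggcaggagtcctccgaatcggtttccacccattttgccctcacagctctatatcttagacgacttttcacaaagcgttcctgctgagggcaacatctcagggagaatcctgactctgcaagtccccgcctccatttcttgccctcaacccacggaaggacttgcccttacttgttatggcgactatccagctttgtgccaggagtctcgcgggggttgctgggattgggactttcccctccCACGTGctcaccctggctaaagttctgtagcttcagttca
Cdk1: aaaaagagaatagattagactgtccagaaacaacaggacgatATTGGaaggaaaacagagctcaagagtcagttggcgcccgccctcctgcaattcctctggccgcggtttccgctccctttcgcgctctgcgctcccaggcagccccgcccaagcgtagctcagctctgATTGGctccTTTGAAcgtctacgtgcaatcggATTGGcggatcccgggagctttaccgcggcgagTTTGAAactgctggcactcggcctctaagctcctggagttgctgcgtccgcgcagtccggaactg
Cdkn1a: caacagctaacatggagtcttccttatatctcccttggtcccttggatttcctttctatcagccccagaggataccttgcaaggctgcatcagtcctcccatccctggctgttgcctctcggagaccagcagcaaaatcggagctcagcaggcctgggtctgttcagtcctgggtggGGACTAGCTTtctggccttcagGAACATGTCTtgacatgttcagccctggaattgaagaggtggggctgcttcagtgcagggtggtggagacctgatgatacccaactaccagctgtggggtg
All 5 motifs were searched in each window on both strands, and no match overlapped another. Matches other than those named for the capitals stand in lower case. Counted to the first base of a match, Birc5 held the GC box 193 and 48 bases before the start. Trp53 held the E-box 10 bases after its start and the CCAAT box 8 bases before it. The p53 decamer was the only one of the 5 found in both windows, 228 bases before the start of Birc5 and 75 before that of Trp53. Cdk1 held the CCAAT box 208, 80 and 48 bases before its start and the cell cycle homology region 71 and 15 bases before. Neither of these motifs matched in the window of Birc5. The GC box, found in Birc5, was also in the window of Cdk1, 171 and 104 bases before its start. Cdkn1a held the p53 decamer 73 and 51 bases before the upstream start and none in the window of the other start. Of 32851 mouse promoter windows of the same length, 35.7% held the GC box, 37.4% CCAAT, 19.2% the cell cycle homology region, 8.36% the p53 decamer and 7.15% the E-box. A match describes letters in the window and is not a measured site.

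The size and call of the member differences changed with how tumors were scaled. Calls changed at the deposited scaling too, as given at the end. With array weights, a weight for each tumor, Cdk1 and Myc passed for the combination against vehicle, where 44.3% of all genes did. With the tumor number as a block Myc passed, where 38.7% of all genes did. As deposited, all 6 genes lay below the panel median of 0.34 for the combination against vehicle, and 5 had negative differences, from -0.39 for Myc to -0.05 for Cdkn1a. Rescaled to the 20 housekeeping genes, the panel median was 0.43, Myc was -0.31 (limma adjusted p = 0.291), Trp53 and Cdkn1a turned to 0.02 and 0.04, and none passed. Quantile normalization moved the panel median to -0.13, and Cdk1 at -0.82 (limma adjusted p = 0.00895) and Myc at -0.70 (limma adjusted p = 0.0219) then passed as lower, among 10.8% of all genes. Centred on the median gene, with a panel median of -0.19, Myc at -0.93 (limma adjusted p = 0.0211), Cdk1 at -0.72 (limma adjusted p = 0.0166) and Birc5 at -0.70 (limma adjusted p = 0.0365) passed as lower, among 21.1% of all genes. Both of these scalings give every tumor the same median level, which need not bring the median of the differences to 0, and Ccnd3 was then at -0.27 and -0.41 in place of 0.13. Of the 142 genes that passed as deposited, 139 were higher, against 65 of 135 after quantile normalization and 63 of 199 after centring.

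**Figure D4:**
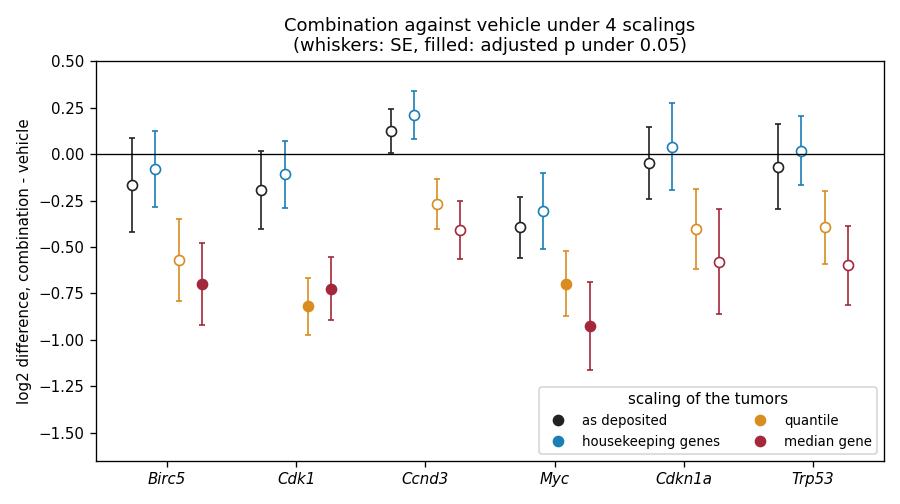
Log2 difference of (value + 1) between combination and vehicle (vertical axis) for the 6 genes under 4 scalings of the tumors, with whiskers for the SE and filled points where the limma adjusted p was under 0.05. As deposited and rescaled to the housekeeping genes all points are open, while Myc and Cdk1 are filled under both other scalings and Birc5 only after centring on the median gene.

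Other panel genes of the same pathways were read from 5 lists. For the combination against vehicle, 22% of all tested genes passed. None of 7 other cell cycle regulators passed in any of the 3 comparisons with vehicle, with a median of -0.02 for the combination against 0.34 over all genes. Differences among them were 0.26 for Atm, the kinase that senses DNA breaks, 0.25 for Txnip, a binder of thioredoxin, and -0.22 for Bmi1, a Polycomb protein that represses the Cdkn2a locus. None of 5 immediate early genes, which growth signals switch on within minutes, passed either (median -0.21). Fos was at 0.87 (limma adjusted p = 0.110), Jun at -0.40, Egr1 at -0.23 and Egr3 at -0.21.

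Among 7 p53 pathway genes, 1 rose with the combination, beside 139 of all 646 genes, and the median of the 7 was 0.03. It was Fas, the death receptor, at 1.11 (SE 0.22, limma adjusted p = 0.00837). Fas lay between 81.1 and 112 normalized counts in vehicle tumors and between 207 and 236 in combination tumors, with no overlap. Fas did not pass by the methods' t-test (adjusted p = 0.0753). That test, adjusted here over all 646 genes, passed only 0.619% of them in this comparison. With limma Fas did not pass after quantile normalization (0.46, limma adjusted p = 0.226) or after centring (0.58, limma adjusted p = 0.105). Bid, Pml and Crebbp were at 0.11, 0.11 and -0.11. Fas is also made by T cells, whose markers moved with it, and their part was not tested.

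Of 11 growth factor receptor and ERK pathway genes, 1 rose with the combination, beside 139 of all 646 genes, and the median of the 11 was -0.11. Egfr, the epidermal growth factor receptor, was at 1.32 (SE 0.40, limma adjusted p = 0.0399), from 20.8 to 68.2 normalized counts with vehicle to 74.7 to 129 with the combination. Its call was lost when 1 of 8 of the 12 tumors was left out, namely vehicle tumor 1 or 2, DSP-0509 tumor 2 or 3, anti-PD-1 antibody tumor 3 or any combination tumor (limma adjusted p from 0.0514 to 0.133). It was lost too after quantile normalization, centring, background subtraction, a fit of only both groups and the methods' t-test. Dusp6, a phosphatase that ERK signalling induces, was at -0.33 (limma adjusted p = 0.128), Hras at 0.28 and Elk1 at 0.26. Of 6 apoptosis regulators and caspases, 1 rose, Xaf1, an interferon-induced partner of XIAP, at 1.09 (SE 0.20, limma adjusted p = 0.00741), and the others were between -0.12 and 0.10. Xaf1 lay between 595.6 and 962 normalized counts with vehicle and between 1566 and 1969 with the combination. It did not pass by the methods' t-test (adjusted p = 0.104), which only 0.619% of all genes passed in this comparison. With either agent alone none of the genes in these 5 lists passed.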

How the data were processed

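The authors counted RNA of 12 tumors on the nCounter PanCancer Mouse Immune Profiling panel and normalized it in nSolver 4.0. What they deposited is a signal, each count times the factor of its tumor. Background was not subtracted, the 14 control probes were not scaled, and which genes set the factor is not given in the sources used here. Steps of the values gave the depth only, and intervals on counts cover counting error only. The filter on log2(value + 1) data kept endogenous genes at 20 or more in 3 or more tumors (646 of 750). These were fitted with limma 3.58.1 (R 4.3.3) over all 12 tumors without covariates and with Benjamini-Hochberg adjustment over the tested genes, after a test on simulated data. Fold changes of low genes are understated on this scale, and p-values measure the spread between mice of 1 experiment. Genes named are all members with a row, up to 4 genes of each list with the largest combination difference, and the 3 nearest to each member. A single gene that this rule takes is not reported here. The members and lists were chosen with earlier results of these data known. Epcam, Cdh1, Muc1, the Birc5 to Trp53 ratio and leaving out the 4 tumors numbered 1 were chosen after seeing the data. Deviations of same-numbered tumors correlated over 0.1 in every pair between vehicle and anti-PD-1 antibody (0.18 to 0.68), between DSP-0509 and combination (0.32 to 0.59) and between anti-PD-1 antibody and combination (0.14 to 0.69), and not in the other 3 comparisons. Alternatives covered the pseudocount, filter, scaling, background, samples fitted, array weights, the methods' t-test, the replicate number as a block and each tumor left out. Figures used matplotlib 3.10.9.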

Additional observations from a re-analysis of the deposited data

How the results depend on the processing

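The count of the 6 genes that passed was 0 in each of the 8 comparisons with another pseudocount, no filter or a filter of 50, rescaling to the housekeeping genes, background subtraction, a fit of only the groups compared, the methods' t-test where it applies, any 1 tumor left out and the 4 tumors numbered 1 left out. At a filter of 50 Cdk1 was not tested. For the combination against vehicle it was 2 after quantile normalization (Cdk1, Myc), 3 after centring on the median gene (Birc5, Cdk1, Myc), 2 with array weights (Cdk1 -0.37, limma adjusted p = 0.0424; Myc -0.32, 0.0285; 44.3% of all genes passed) and 1 with the replicate block (Myc -0.39, limma adjusted p = 0.0322; 38.7% of all genes passed). With array weights it was 1 (Myc, -0.44) for anti-PD-1 antibody against vehicle, where 25.5% of all genes passed, and 1 (Myc) for the F test among the 4 groups, where 34.8% did. The replicate block changed no other call of a member, and none in the 3 comparisons whose tumor numbers deviate together; combination and vehicle are not among these (r from -0.23 to 0.47). Over its alternatives the limma adjusted p of Myc for the combination ran from 0.0211 to 0.333.

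Some differences took the other sign, none of them past the threshold. With quantile normalization and with centring, Ccnd3 was -0.013 and -0.048 for DSP-0509 and -0.27 and -0.41 for the combination, and Cdkn1a was -0.12 and -0.10 for DSP-0509. Rescaled to the housekeeping genes, Ccnd3 was 0.018 and Trp53 0.033 for anti-PD-1 antibody, and Cdkn1a was 0.040 and Trp53 0.019 for the combination. With array weights, Trp53 was 0.010 for anti-PD-1 antibody and Cdkn1a 0.049 for the combination. Without the 4 tumors numbered 1, these were 0.031 and 0.078. With any 1 tumor left out, the differences for anti-PD-1 antibody ran from -0.18 to 0.11 for Birc5, from -0.052 to 0.031 for Ccnd3, from -0.27 to 0.036 for Cdkn1a and from -0.11 to 0.14 for Trp53, and those for the combination from -0.13 to 0.094 for Cdkn1a and from -0.18 to 0.0044 for Trp53. The cause was not tested. The 3 tumors of a group limit the precision of each value.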
